A study of Mus musculus with 6 samples.

Results

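The genes described here encode the respiratory chain and ATP synthase of the mitochondrion, and they were read in whole livers of 12-day-old mice. Members were the protein-coding rows of the deposited FPKM table (fragments per kilobase of gene length, scaled to the size of the library) whose symbol begins with Nduf, Uqcr, Cox4, Cox5, Cox6, Cox7, Cox8, Atp5 or mt-, together with Sdha, Sdhb, Sdhc and Sdhd. This gave 107 rows of 54532 genes in all, of which 22046 were protein-coding. Of the 107 members, 94 lay in the nuclear genome and 13 in the mitochondrial genome. The nuclear members comprised 83 rows for structural subunits and 11 for assembly factors and related proteins. The member rule itself uses no measured level.

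The series holds 3 livers labelled Tbx21flox/flox Foxp3GFP-CreRosa26loxP-Stop-loxP-YFP and 3 labelled Foxp3GFP-CreRosa26loxP-Stop-loxP-YFP, all on C57BL/6. The Foxp3-driven Cre and the Rosa26 reporter are therefore shared by all 6 livers, and the floxed Tbx21 alleles are carried by 3 of them. Foxp3 marks regulatory T cells, so the Cre is directed at a lymphocyte population rather than at hepatocytes. Whether a liver came from 1 animal or from several is not given in the sources used here. The 6 columns of the table carry running numbers that name no genotype, so they are named liver 1 to liver 6 and no comparison of genotypes was made. Each group of 6 values mixes both genotypes. For that reason levels are given as the lowest, the median and the highest of 6 livers, with no mean, no SD and no test.

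The respiratory chain passes electrons from NADH and succinate to oxygen through complexes I to IV, and the proton gradient that results drives ATP synthase, also known as complex V. Complex II is coded wholly in the nucleus, whereas the other complexes combine nuclear subunits, imported from the cytosol, with subunits made inside the mitochondrion. Hepatocytes are rich in mitochondria and use this ATP for gluconeogenesis, urea synthesis and secretion of plasma proteins. Suckling mice draw much of their energy from the fatty acids of milk.

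Each FPKM value times the listed gene length was a whole multiple of a column-wide step, to within 0.001, for 100% of values, so the fragment counts could be recovered. They summed to between 14859569 and 18796842 fragments per liver. All 10 hepatocyte markers were at a median of at least 1 FPKM, led by Alb at 49073 FPKM. Muscle markers were absent at that level (0 of 13, with Ckm, Mb, Myh1 and Myh6 at 0 in every liver). Testis markers were absent at it too (0 of 5). Of 4 brown fat markers, 1 (Ppargc1a, median 2.94 FPKM) reached it, and Ucp1 was at 0 in every liver. Other cell types differed between livers: the summed level of 8 erythroid markers ran between 377 and 1425 FPKM, of 8 myeloid and Kupffer markers between 312 and 817 FPKM, of 7 granulocyte markers between 196 and 544 FPKM, and of 5 cholangiocyte markers between 52.8 and 162 FPKM. Of 7 T and NK cell markers, 1 (Nkg7, median 2.66 FPKM) reached 1 FPKM. In whole tissue, fewer cells of a type and less RNA per cell cannot be told apart.

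Respiratory chain genes were among the most abundant transcripts of these livers. A median of at least 1 FPKM was reached by 101 of 107 members (94.4%), against 10265 of 22046 protein-coding genes (46.6%). A median of at least 100 FPKM was reached by 38 members (35.5%), against 1.87% of protein-coding genes. The 20 protein-coding genes with the highest medians included 7 members, and all 7 were mitochondrially encoded. The top 500 held 46 members, 34 nuclear and 12 mitochondrial. The 6 members below 1 FPKM were tissue isoforms of complex IV (Cox4i2, Cox6a2, Cox7b2, Cox8b and Cox8c) and a second row under the symbol Atp5o.

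**Figure D1:**
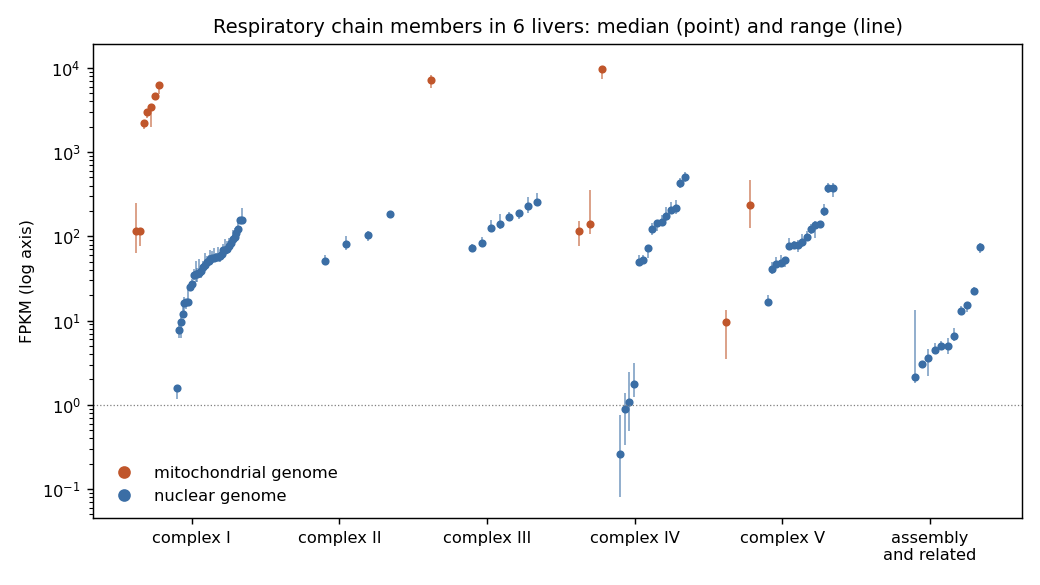
Each point is the median FPKM of one member over 6 livers on a log axis, and its line runs from the lowest to the highest liver; members are grouped by complex along the horizontal axis, and the 4 rows at 0 in every liver are not drawn. Mitochondrially encoded genes of complexes I, III and IV reach up to 9787 FPKM, whereas nuclear members end at 500.2 FPKM.

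The 13 mitochondrially encoded genes summed to 32043, 30424, 36743, 38981, 40569 and 37536 FPKM in livers 1 to 6, with a median of 37140 FPKM. The nuclear subunits summed to 8842.5, 7019.2, 7870.6, 8435.0, 7826.3 and 7254.4 FPKM in the same livers, with a median of 7848.5 FPKM. Livers 1 and 2 had the lowest mitochondrial sums, and liver 1 had the highest nuclear sum. The ratio of the mitochondrial to the nuclear sum was 3.62, 4.33, 4.67, 4.62, 5.18 and 5.17, lowest in liver 1 and highest in livers 5 and 6. Both sums come from the same library, so this ratio carries no effect of library scale. Differences that follow transcript length need not cancel in it. In liver 1, the 52 nuclear subunits with a transcript of up to 1000 bases had a median ratio to their own medians of 1.22. Their part in the ratio of the sums was not tested. In fragments, mitochondrial genes took between 3.70% and 4.99% of each liver's total (median 4.601%), and nuclear subunits between 1.21% and 1.45% (median 1.33%). Of the 13 mitochondrial genes, the 6 listed lowest summed to a median of 826 FPKM and 0.0501% of fragments. The levels of these 6 are uncertain by an unknown amount, as described below. The mitochondrial sum, its ratio to the nuclear sum and its share are uncertain to that extent.

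**Figure D2:**
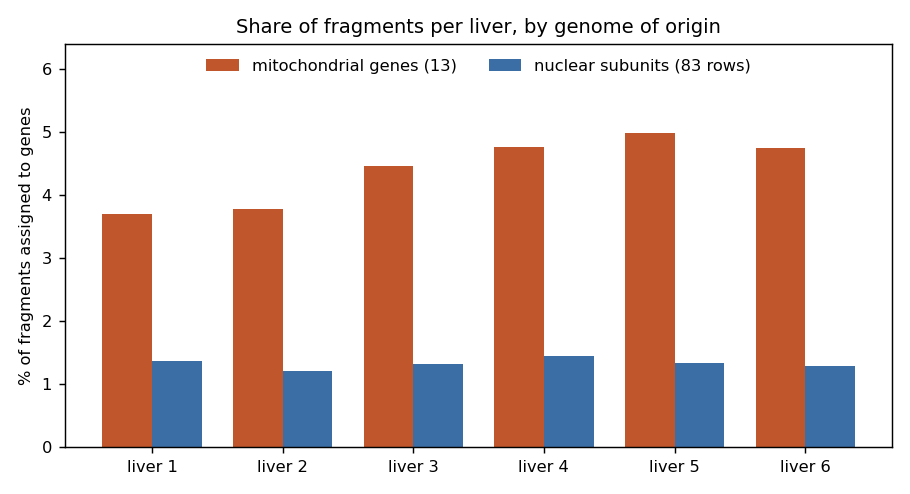
Bars give the percentage of all fragments assigned to genes that fell on the 13 mitochondrially encoded genes (orange) and on the 83 nuclear subunit rows (blue) in each of 6 livers. The mitochondrial share is lowest in liver 1 (3.70%) and highest in liver 5 (4.99%), and the nuclear share is highest in liver 4 (1.45%).

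The mitochondrial genome is transcribed as long precursors that are cut into shorter messages, so its genes share promoters. Their listed levels nevertheless fell into 2 separate ranges. In the higher range stood mt-Co1, the catalytic subunit of cytochrome c oxidase, with a lowest, median and highest level of 7431, 9787 and 10650 FPKM. It was followed by mt-Cytb, the cytochrome b of complex III, at 5833, 7209.8 and 8304 FPKM. The complex I membrane subunits mt-Nd1 (4840.4, 6179 and 6391 FPKM) and mt-Nd2 (4137, 4587 and 4990.4 FPKM) came next. These 4 genes stood in this order within each liver, although the ranges of neighbours in the order overlapped across livers.

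mt-Nd5, a proton-pumping subunit of complex I, had 1979 FPKM in liver 1 and between 2720 and 3771 FPKM in the other livers, with a median of 3392.5 FPKM. Liver 1 was lowest, and mt-Nd5 had the widest range of the higher genes, at 1.91 times from lowest to highest. mt-Nd6 lay at 2508, 2965 and 3241 FPKM and mt-Nd4 at 1884, 2245 and 2432 FPKM. mt-Nd6 is the only member on the opposite strand of the mitochondrial genome, and its row overlaps that of mt-Nd5. The strand setting of the counting is not given in the sources used here, so reads of mt-Nd6 and of RNA from the other strand cannot be told apart.

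The other 6 genes were listed far lower and lie side by side on the mitochondrial genome, between positions 7013 and 10173 of chromosome MT (mm10). mt-Co2, the copper-binding subunit that receives electrons from cytochrome c, had 131, 108, 354, 310.2, 149 and 134 FPKM in livers 1 to 6. Livers 3 and 4 were high, and the other 4 lay close together. mt-Atp6, part of the proton channel of ATP synthase, had 225, 195, 124, 247, 366 and 471 FPKM, highest in liver 6 and lowest in liver 3. mt-Nd4l, a small complex I subunit, had 63.5, 160.1, 78.6, 250.2, 150.3 and 64.4 FPKM, highest in liver 4. These 3 genes thus did not share a high or a low liver. mt-Co3 (77.1, 114 and 151 FPKM) and mt-Nd3 (76.7, 114 and 127 FPKM) completed the block together with mt-Atp8.

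mt-Atp8, the small partner of mt-Atp6, was the lowest mitochondrial gene, with 3.47, 5.67, 8.25, 12.4, 13.5 and 11.2 FPKM in livers 1 to 6. These values rest on between 13 and 47 fragments, and the 95% Poisson interval of liver 1 was 1.85 to 5.94 FPKM, counting error only. Its row overlaps the start of mt-Atp6, and the row of mt-Nd4l overlaps the start of mt-Nd4. The levels within each of these pairs need not be those of separate messages. From lowest to highest liver, mt-Nd4l ranged 3.94-fold, mt-Atp8 3.89-fold, mt-Atp6 3.78-fold and mt-Co2 3.28-fold, against between 1.21-fold and 1.91-fold for the 7 higher genes.

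**Figure D3:**
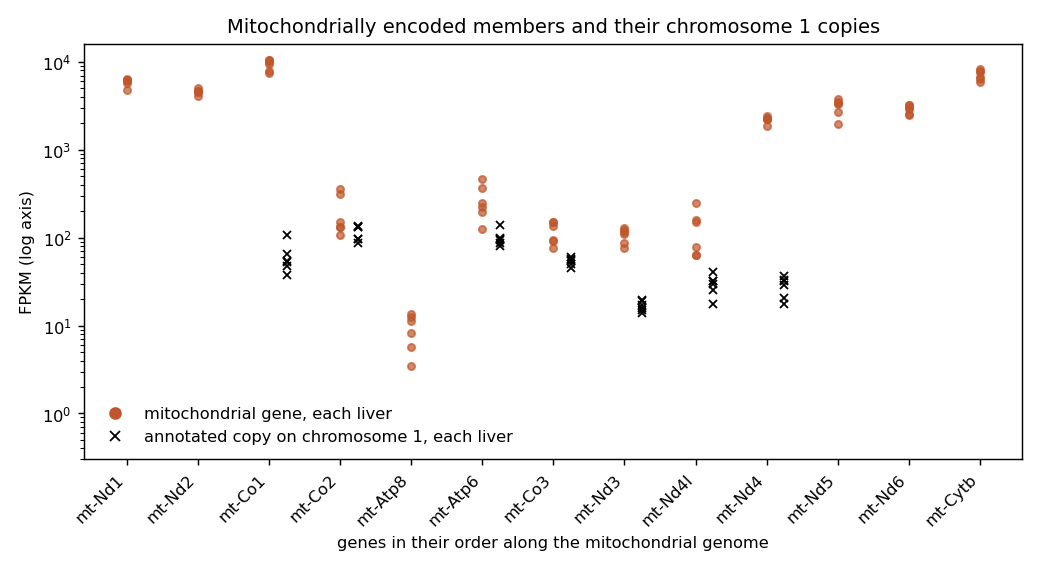
Orange points give the FPKM of each mitochondrially encoded gene in each of 6 livers on a log axis, in the order of the genes along the mitochondrial genome, and crosses give the annotated chromosome 1 copy of a gene where there is one. The 6 genes between mt-Co2 and mt-Nd4l sit between 3.47 and 471 FPKM, and the other 7 sit at 1884 FPKM or more.

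The low block coincides with a stretch of the nuclear genome that repeats it. On the minus strand of chromosome 1, between 24611535 and 24616197 (mm10), 7 annotated pseudogenes carry copies of mitochondrial genes between mt-Co1 and mt-Nd4, mt-Atp8 not among them. Gm28661 repeats 681 bases of mt-Co2, Gm10925 repeats 678 bases of mt-Atp6, Gm28437 repeats 783 bases of mt-Co3, Gm28438 repeats 342 bases of mt-Nd3 and Gm10222 repeats 294 bases of mt-Nd4l, all with 0 mismatches. The copies extend into both neighbours. Gm28439 matches the first 876 of 1378 bases of mt-Nd4 without a mismatch, and Gm29216 matches the last 483 of 1545 bases of mt-Co1 with a single substitution, A1066T, counted from the first base of mt-Co1 with the mitochondrial base first.

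The first 60 bases of mt-Co2 and mt-Nd4l, both from low rows, are shown with those of their copies, because no base in them tells the genomes apart. They were read from GENCODE M21 transcripts and are written 5′ to 3′ in lower case.
mt-Co2: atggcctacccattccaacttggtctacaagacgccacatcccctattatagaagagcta
Gm28661: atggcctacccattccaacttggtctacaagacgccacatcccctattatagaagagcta
mt-Nd4l: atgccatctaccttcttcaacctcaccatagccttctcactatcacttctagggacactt
Gm10222: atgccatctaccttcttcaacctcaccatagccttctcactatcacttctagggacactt
Of all stretches of 100 bases in the gene, the share also found in transcripts of other annotated genes was 99.9% for mt-Co3, 99.5% for mt-Co2 and mt-Atp6, 98.5% for mt-Nd4l and 97.6% for mt-Nd3. It was 60.8% for mt-Nd4, 30.8% for mt-Co1, 3.19% for mt-Nd2 and 0 for mt-Nd1, mt-Nd5, mt-Nd6, mt-Cytb and mt-Atp8. mt-Atp8 thus had no annotated copy, but only annotated transcripts were searched. The gap of 233 bases between Gm10925 and Gm28661 equals that between the copied part of mt-Co2 and mt-Atp6, a stretch that holds 161 of the 204 bases of mt-Atp8. Its sequence was not read here, so whether mt-Atp8 has a copy there was not tested.

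The copies themselves had counts. Their medians were 114 FPKM for Gm28661, 94.9 FPKM for Gm10925, 55.4 FPKM for Gm28437, 53.3 FPKM for Gm29216, 31.0 FPKM for Gm10222, 30.4 FPKM for Gm28439 and 16.4 FPKM for Gm28438. mt-Co2 was listed at 1.24 times its copy, whereas mt-Nd3 was listed at 6.96 times its copy. How fragments that match several places were handled is not given in the sources used here. The part of the copies in the low values was not tested. If all fragments of mt-Co1 came from the 1062 bases that its copy does not repeat, its median would be 14238 FPKM, and for the 502 such bases of mt-Nd4 it would be 6163 FPKM. The order among mt-Co1, mt-Nd4 and the other higher mitochondrial genes is uncertain to that extent. For the 6 low genes no such value was computed, so their levels are uncertain by an unknown amount.

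Complex I, NADH dehydrogenase, takes electrons from NADH and is the largest complex of the chain. Its 36 nuclear subunits had a median level of 51.8 FPKM (48.1 to 59.8 FPKM over the 6 livers). The 7 core subunits, which carry the flavin and iron-sulfur clusters or lie beside them, and the 29 accessory subunits had similar medians, 49.6 and 53.1 FPKM. By listed length the highest subunits were the small accessory proteins Ndufa2 (139.97, 158 and 215 FPKM as lowest, median and highest), Ndufb11 (144, 155 and 171 FPKM) and Ndufa1 (104, 122 and 156 FPKM). Liver 1 was highest for all 3. The lowest by listed length were Ndufb2, at 1.18, 1.59 and 1.65 FPKM, and Ndufab1, the mitochondrial acyl carrier protein, at 6.22, 7.64 and 9.08 FPKM. The complex thus spanned 99.6-fold from its lowest to its highest subunit by listed length.

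That span depended on the gene length used. The table divides by all exonic positions of a gene, and Ndufb2 is listed with 5628 bases. With the shortest APPRIS principal transcript of GENCODE M21 in its place, the median of Ndufb2 became 19.7 FPKM and the span of complex I fell to 13.9-fold, with Ndufa12 lowest at 13.6 FPKM. The top of the complex changed too, to Ndufa6 (188 FPKM), Ndufa7 (184 FPKM) and Ndufc1 (170.1 FPKM), ahead of Ndufa2. For 36 of the 94 nuclear members the listed length was more than 2 times that transcript, and for 5 it was more than 5 times. Values by principal transcript length, here and below, keep all fragments of the gene. They assume that every fragment fell on that transcript, which was not tested, so they may be too high and orders based on them are uncertain.

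Assembly factors of complex I, which help to build it and are absent from the finished complex, stood well below its subunits. The 8 members named Ndufaf had a median of 6.12 FPKM (5.34 to 7.20 FPKM over the livers). Ndufaf8 was highest, at 21.6, 22.5 and 24.97 FPKM, and Ndufaf5 lowest, at 2.22, 3.56 and 4.59 FPKM. No factor reached the median of the subunits.

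Complex II, succinate dehydrogenase, links the citric acid cycle to the chain and has 4 subunits. Sdhd, a membrane anchor, had 197, 181, 198, 192, 180.04 and 169 FPKM in livers 1 to 6. Sdha, the flavoprotein that oxidises succinate, had 87.4, 96.9, 101, 117, 109 and 105 FPKM. Sdhb, the iron-sulfur subunit, had 77.4, 68.6, 87.5, 101, 82.8 and 75.5 FPKM. Sdhc, the other anchor, had 57.0, 48.3, 48.6, 59.4, 52.2 and 51.0 FPKM. Sdhd lay above the other 3 in every liver, Sdhc lay below them in every liver, and Sdha lay above Sdhb in every liver although their ranges overlapped. By principal transcript length the medians of Sdhb and Sdha were 157 and 147 FPKM, so their order turned with the length used.

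Complex III, the cytochrome bc1 complex, passes electrons to cytochrome c. Its 8 nuclear subunits taken by the member rule had the highest median of the complexes by listed length, 155 FPKM (142 to 188 FPKM). Cyc1, the cytochrome c1 of the complex, lies outside the rule at a median of 119 FPKM. The ranking with Cyc1 included was not computed. By listed length the small subunits Uqcr10 (232, 253 and 331 FPKM) and Uqcrq (191, 227 and 292 FPKM) led, followed by Uqcrfs1, the Rieske iron-sulfur protein, at 162, 191 and 199.5 FPKM. The core proteins Uqcrc1 (66.3, 72.9 and 81.5 FPKM) and Uqcrc2 (74.7, 84.0 and 97.5 FPKM) were lowest. Uqcrh, the hinge protein, had 112, 126 and 156 FPKM. By principal transcript length, Uqcrq led with a median of 1027 FPKM, Uqcr10 followed at 339.8 FPKM, and Uqcrc2 and Uqcrc1 stayed lowest at 113 and 182 FPKM.

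Complex IV, cytochrome c oxidase, reduces oxygen, and several of its nuclear subunits exist as tissue isoforms. The 18 subunit rows had a median of 63.8 FPKM (51.4 to 68.6 FPKM), and the 13 of them at 1 FPKM or more had a median of 143 FPKM. By listed length the highest were Cox6a1 (445, 500.2 and 584 FPKM), Cox8a (373, 435 and 499 FPKM) and Cox6b1 (183, 219.9 and 271 FPKM). Cox6a1 had the highest listed level of the nuclear members, at rank 66 of all protein-coding genes. By principal transcript length it had 615 FPKM, below Uqcrq and Atp5b (839.8 FPKM), and Ndufa4 (456 FPKM) passed Cox8a (431 FPKM). Cox4i1, the general form of subunit IV, had 188, 203 and 256 FPKM. Cox6c, which has a single form, had 45.6, 49.6 and 60.8 FPKM. Ndufa4, first assigned to complex I and now counted as a subunit of complex IV, had 134, 149 and 178 FPKM.

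Isoforms known from muscle, lung or testis were low or not detected. Cox4i2, a form of subunit IV known from lung, had 0.415, 0.838, 1.37, 0.979, 0.968 and 0.331 FPKM in livers 1 to 6, or 0.381% of the summed level of the pair. Cox6a2, the heart and muscle form, rested on 23 fragments in all and made up 0.0664% of its pair with Cox6a1. Cox7a1, another heart and muscle form, had 2.14, 0.720, 2.47, 0.927, 1.21 and 0.488 FPKM and made up 1.06% of its pair with Cox7a2 (105, 124 and 144 FPKM). Cox6b2, a testis form, had 1.24, 1.75 and 3.12 FPKM, or 0.848% of its pair with Cox6b1. Each general form exceeded its minor form in every liver.

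Cox7b2, Cox8b and Cox8c had 0 fragments in all 6 livers. A count of 0 allows up to 3 fragments over the group, which equals 0.0537, 0.0809 and 0.0636 FPKM. Against that limit, Cox7b (115, 143 and 153 FPKM) was at least 2576-fold higher than Cox7b2. Cox8a was at least 5376-fold higher than Cox8b and at least 6839-fold higher than Cox8c. These limits cover counting error only.

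Ndufa4l2, a paralogue of Ndufa4 known as a hypoxia-induced gene, had 3.44, 1.96, 13.5, 2.27, 1.82 and 2.03 FPKM in livers 1 to 6. Liver 3 stood apart with 246 fragments, and its 95% Poisson interval of 11.9 to 15.3 FPKM lay above those of the other 5 livers, counting error only. Liver 3 also had the highest summed myeloid and Kupffer markers (817 FPKM, 312 to 546 FPKM in the others) and the highest endothelial markers (109 FPKM, 51.2 to 87.6 FPKM in the others). All 8 myeloid and all 6 endothelial markers were at 1 FPKM or more by median. Their part in the Ndufa4l2 value was not tested. Cox7a2l, described as a factor that joins complexes III and IV into supercomplexes, was steady at 63.4, 74.2 and 83.05 FPKM. Whether its protein acts so in these mice was not tested.

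**Figure D4:**
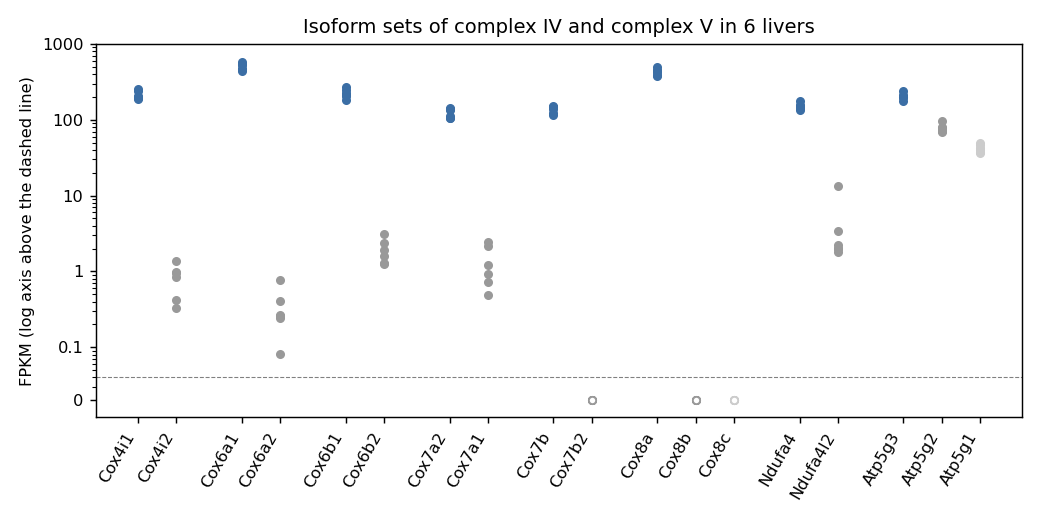
Points give the FPKM of each isoform in each of 6 livers, on a log axis above the dashed line and with 0 drawn below it; the most abundant form of each set is blue and the others are grey. Cox7b2, Cox8b and Cox8c are at 0 in every liver, and Ndufa4l2 has 1 liver at 13.5 FPKM with the others at 3.44 FPKM or less.

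ATP synthase, complex V, joins a catalytic F1 head to a membrane Fo part and a stalk. The 17 nuclear rows had a median of 82.6 FPKM (73.9 to 95.8 FPKM), with 138 FPKM for the 5 F1 subunits and 63.1 FPKM for the 12 rows of Fo and stalk. With principal transcript length the median of the 17 rows was 266 FPKM, the highest of the complexes. The catalytic beta subunit gene Atp5b had 294, 330.2, 377, 429, 387 and 383 FPKM in livers 1 to 6. The alpha subunit gene Atp5a1 had 339, 331, 386, 428, 387 and 366.5 FPKM. Liver 4 was highest and livers 1 and 2 were lowest for both. By listed length the lowest subunit above 0 was Atp5l, subunit g, at 15.1, 16.7 and 20.2 FPKM. Its listed length was 11.8 times its transcript, and by transcript length Atp5l had 198 FPKM and Atp5o was lowest at 110.5 FPKM. One of 2 rows under the symbol Atp5o, with an identifier of its own (ENSMUSG00000116933), was at 0 in every liver, whereas the other (ENSMUSG00000022956) had 43.9, 46.9 and 56.6 FPKM. These 2 rows overlap on chromosome 16.

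The c ring of the Fo part is built from one mature protein that 3 genes encode with different targeting sequences. Atp5g3 had the highest level, at 176, 199.8 and 241 FPKM by listed length. Atp5g2 followed at 69.3, 76.7 and 95.8 FPKM and Atp5g1 at 36.0, 41.1 and 50.2 FPKM. The ranges of the 3 genes did not overlap. By principal transcript length the medians were 610.4 FPKM for Atp5g3, 339.04 FPKM for Atp5g1 and 291 FPKM for Atp5g2, so the last 2 changed places, and Atp5g3 made up 49.2% of the sum, against 62.9% by listed length. Atp5g2, Atp5g1 and Atp5l share 100%, 57.3% and 61.3% of their stretches of 100 bases with other annotated genes, so their levels are uncertain. Only these 3 nuclear members shared over 50% of such stretches, and 19 of 94 shared any. Atp5s, the coupling factor B gene, had 2.72, 3.06 and 3.22 FPKM.

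Related genes outside the member rule were read beside the chain. Among 15 genes of electron carriers and exchange proteins, 11 were at 1 FPKM or more by median, led by Usmg5, a small protein bound to ATP synthase, at 321, 376 and 422 FPKM. Cyc1, the cytochrome c1 of complex III, had 109, 119 and 141 FPKM, and Cycs, the somatic cytochrome c, had 31.1, 38.4 and 44.0 FPKM. Slc25a5, the ADP/ATP carrier with the highest level here, had 194, 209.95 and 247 FPKM. The 4 below 1 FPKM were Ucp1, Ucp3, the testis cytochrome c gene Cyct and the testis carrier gene Slc25a31.

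Of 37 assembly factor genes, 32 were at 1 FPKM or more by median, with Coa3 (67.6 FPKM) and Cox14 (57.6 FPKM), both acting early in complex IV assembly, the highest. Lyrm7, Cox20 and the copper chaperone Cox17 were below 1 FPKM at 0.499, 0.451 and 0.176 FPKM, and Pet117 and Sco2 were at 0 in every liver. Listed length and shared stretches were examined for members only, so low values and values of 0 among these related genes are uncertain. Of 18 genes for expression of the mitochondrial genome and its regulators, 15 were at 1 FPKM or more. Tfam, which packages mitochondrial DNA and starts its transcription, had 12.9, 13.8 and 14.2 FPKM. Lrpprc, which stabilises mitochondrial messages, had 17.5, 19.6 and 20.2 FPKM, whereas its partner Slirp had a median of 0.226 FPKM. The coactivator gene Ppargc1a had 1.65, 1.995, 3.94, 2.58, 3.29 and 4.32 FPKM, with livers 1 and 2 lowest.

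The median ratio of the highest to the lowest liver was 1.66 for mitochondrial genes and 1.35 for nuclear subunits at 1 FPKM or more, against 1.43 for all protein-coding genes at that level. The mitochondrial value pools the 6 low genes, whose levels are uncertain, with the 7 higher ones. Of the higher genes, mt-Nd5 had a ratio of 1.91 and the others had ratios between 1.21 (mt-Nd2) and 1.43 (mt-Co1). At 10 to 500 FPKM the medians were close, 1.34 for nuclear subunits and 1.37 for all protein-coding genes. In that range 62 of 71 nuclear subunits (87.3%) stayed within 1.5-fold and 0 reached 2-fold, against 67.5% and 8.997% of 3101 protein-coding genes. Among nuclear members at 1 FPKM or more, the steadiest were Ndufaf8 (1.16), Sdhd (1.17), Atp5s (1.18), Ndufb11 (1.19) and Ndufa9 (1.22). The widest at that level were Ndufa4l2 (7.42), Cox7a1 (5.07), Cox6b2 (2.53), Ndufaf5 (2.07) and Ndufa12 (1.83). Below 1 FPKM, Cox6a2 (9.49, 1 to 8 fragments a liver) and Cox4i2 (4.15, 4 to 18 fragments) ranged more widely than most of these.

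Subunits of one liver tended to deviate together. Of 77 nuclear subunits at 1 FPKM or more, 48 were highest in liver 1 and 22 in liver 4, while 42 were lowest in liver 2 and 23 in liver 6. As shares these were 62.3%, 28.6%, 54.5% and 29.9% of the subunits, against 26.8%, 14.9%, 10.7% and 13.5% of 10265 protein-coding genes at 1 FPKM or more. Of 3101 protein-coding genes at 10 to 500 FPKM, 39.7% were highest in liver 1 and 12.6% lowest in liver 2. Relative to each gene's own median, subunits stood at 1.16 times in liver 1, 0.904 in liver 2, 0.996 in liver 3, 1.08 in liver 4, 1.01 in liver 5 and 0.933 in liver 6 by median. All protein-coding genes stood between 0.992 and 1.01 in every liver, a value that the scale of the deposited columns sets. The 7 higher mitochondrial genes followed another order, with a median log2 deviation of -0.16 in liver 1, -0.30 in liver 2 and 0.12 in liver 5.

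**Figure D5:**
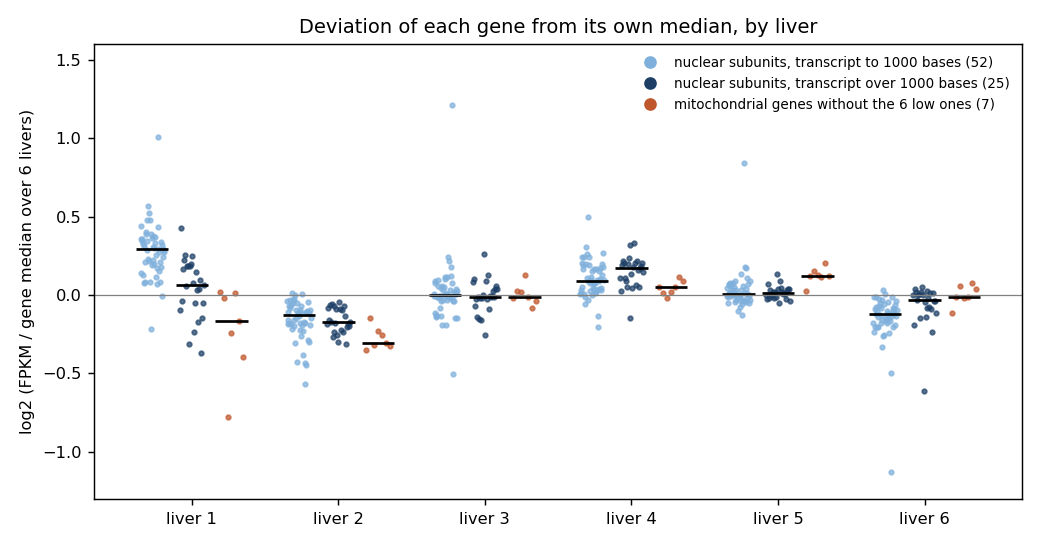
Each point is one gene's log2 ratio of its FPKM to its own median over 6 livers, for nuclear subunits with a transcript of up to 1000 bases (light blue, 52 genes), nuclear subunits with a longer one (dark blue, 25 genes) and the 7 higher mitochondrial genes (orange); black bars are medians. Short subunits are raised in liver 1 (median ratio 1.22), and all 25 long subunits are below their own median in liver 2.

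The height of liver 1 followed transcript length. Among 52 subunits with a principal transcript of up to 1000 bases, 42 (80.8%) were highest in liver 1, and the median ratio to the gene's own median was 1.22. Among 475 protein-coding genes of that length at 10 to 500 FPKM, 352 (74.1%) were highest in liver 1, also with a median ratio of 1.22. Across genes, Spearman's rho between transcript length and the deviation in liver 1 was -0.57 for the 77 subunits and -0.55 for 10245 protein-coding genes, all of 1 library. A share near that of other short genes says nothing particular of the subunits.

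Long subunits gave another picture. Of 25 with a transcript over 1000 bases, 17 (68.0%) were highest in liver 4, against 20.8% of 2621 protein-coding genes of that length at 10 to 500 FPKM. All 25 were below their own median in liver 2, with a median ratio of 0.889, against 55.0% of those 2621 genes and a median ratio of 0.994. The summed erythroid markers were 1425 FPKM in liver 4 and 1393 FPKM in liver 3, where long subunits stood at 0.993 of their own medians. Liver 2 had the lowest summed granulocyte markers (196 FPKM), and liver 3 had the next lowest (249 FPKM). Of the 8 erythroid markers 7 and of the 7 granulocyte markers 7 were at 1 FPKM or more by median, and none of them was at 0 in every liver. Their part in these shifts was not tested.

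The choice of library scale moved liver 1. When each column was rescaled so that all genes summed to 1000000, the nuclear sum of liver 1 became the lowest of the 6, at 16033 against 16626 to 19962 in the others, and 2 of 77 subunits were highest there. One short microRNA gene row, Gm23935, had 122687 FPKM in liver 1 and between 21293 and 55550 FPKM in the others. The rescaling shifted the median of all protein-coding genes in liver 1 by -0.31 on the log2 scale. Relative to that median, subunits stood 0.25 higher in liver 1, against 0.22 as deposited. With Gm23935 left out of the total, 34 of 77 subunits were highest in liver 1.

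The start regions of nuclear members were read for letters of transcription factors known for respiratory genes. RefSeq (GRCm38.p6) gave 81 windows, 250 bases before to 50 after a gene start, for 76 of 94 nuclear members. The letters CGCNTGCGC, which lie within the NRF1 motif, were searched on both strands as were the others. They occurred in 23 windows (28.4%), against 6.25% of 32851 windows of all genes and 14.8% of windows of protein-coding genes at 10 FPKM or more. The letters CCGGAAG of the ETS family, which includes GABPA, occurred in 22.2%, against 8.86% and 17.1%. AAGATGGCG of YY1 occurred in 9.88%, against 1.40% and 3.13%. TNAAGGTCA of ESRRA occurred in 3.70%, against 1.28% and 0.894%, and TGACGTCA of CREB in 4.94%, against 1.79% and 2.65%. TATAAA occurred in 9.88%, against 13.6% and 9.17%.

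The subunit of highest listed level with the NRF1 letters before its start is shown for each complex that had one, to show where the letters lie before a gene start. Sequences are from RefSeq GRCm38.p6, all on the minus strand of the chromosome and written 5′ to 3′ along the gene, with one match to the NRF1 letters, on either strand, in capitals.
Cox6a1, chr5:115349086-115349144: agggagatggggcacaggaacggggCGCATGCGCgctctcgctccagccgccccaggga
Sdhd, chr9:50603895-50603953: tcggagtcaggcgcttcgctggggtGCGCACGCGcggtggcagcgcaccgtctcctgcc
Atp5k, chr5:108434415-108434473: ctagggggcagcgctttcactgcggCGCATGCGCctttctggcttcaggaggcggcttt
Ndufa8, chr2:36049339-36049392: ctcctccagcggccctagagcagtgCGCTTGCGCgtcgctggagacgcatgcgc
A second match ends the Ndufa8 stretch and is left in lower case. Of 5 complex III subunits with a window, 2 held these letters, both reaching past the gene start. Cox6a1 and Sdhd also held the ETS letters nearer to the start, with no overlap of the 2 motifs. Atp5k, subunit e of ATP synthase, had 96.2, 136 and 153 FPKM, and Ndufa8, an accessory subunit of complex I, had 85.8, 98.7 and 126.5 FPKM. Nrf1 itself had 1.33, 1.37 and 1.45 FPKM, Gabpa 5.84, 7.68 and 7.98 FPKM and Esrra 11.9, 13.9 and 16.5 FPKM. A match is a description of letters, not a bound site.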

How the data were processed

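Whole-liver RNA was extracted with Trizol and sequenced from NEBNext Ultra libraries, per the labels' protocols. The submitters' processing notes name the mm10 build, DESeq2 1.20.0, featureCounts 1.5.0-p3 and HISAT2 2.0.5, without their roles. The authors deposited FPKM values, and the gene length beside them, per the file headers. Strand setting and treatment of multiply matching reads are not given in the sources used here. The members and lists were chosen with earlier results of these data known. Values were used as deposited, with Python 3.11.15, pandas 2.3.3, numpy 2.4.6, scipy 1.17.1 and matplotlib 3.10.9. No test was run, because the columns name no genotype.

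Fragments were recovered from FPKM and listed length (tolerance 0.001). The deposited scale differed from the column's own total by a factor of 0.976 to 1.03. A gene was counted as expressed at a median of 1 FPKM. Poisson intervals are exact, at 95%. Copies were sought as shared windows of 100 bases among GENCODE M21 transcripts, and promoter letters in RefSeq windows (those of NRF1 and YY1 were shortened after counts for longer forms had been seen); the last 20 bases of 71 of 81 windows occurred in the first 400 bases of a transcript. Genes named were all mitochondrial members, Sdha to Sdhd, the 3 highest and 2 lowest subunits of complexes I, III, IV and V, isoform sets, the highest and lowest assembly factor, the 5 widest and 5 steadiest nuclear members, and list genes where a count turned on them. Recovery of fragments was tested on simulated data.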

Additional observations from a re-analysis of the deposited data

Results flagged for a closer look

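Among 104 sets of 6 values checked, 3 had a highest or lowest liver far from the rest by Dixon's 95% criterion for 6 values. Chance alone gives about 1 in 20, and each set mixes both genotypes. Ndufa2, an accessory subunit of complex I, had 214.7 FPKM in liver 1 and 139.97 to 164 FPKM in the others. Ndufa7, another accessory subunit, had 74.7 FPKM in liver 1 and 51.7 to 58.3 FPKM in the others. The transcripts of Ndufa2 and Ndufa7 have 572 and 528 bases. Of 475 protein-coding genes with a transcript of up to 1000 bases at 10 to 500 FPKM, 352 (74.1%) were highest in liver 1. Ndufa4l2 had 13.51 FPKM in liver 3 and 1.82 to 3.44 FPKM in the others.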

How the results depend on the processing

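No paired analysis was possible because genotypes could not be assigned and no test was run. Rescaling each column to 1000000 over all genes gave a mitochondrial sum of 85380, a nuclear sum of 17256 and a spread of 1.33. Rescaling over genes other than mt- genes gave sums of 94099 and 19070. It gave subunit medians, mitochondrial then nuclear, of 7639 and 128 for complex I, 18264 and 381 for III, 382 and 152 for IV, 299.5 and 199 for V, and 234 for II. A mean over members in place of a median gave 105 FPKM for complex II, 3384 (mitochondrial) and 120.2 (nuclear) for IV and 117 (nuclear) for V. Keeping members at 1 FPKM or more gave 143 FPKM for nuclear complex IV. The following were chosen after seeing the data. For a hypothetical mitochondrial sum, the 6 low genes, mt-Atp8 included, were left out. All fragments of mt-Co1 and mt-Nd4 were assigned to the bases outside their chromosome 1 copies, which gave 44616 FPKM. Principal transcript lengths, with all fragments of a gene assigned to that transcript, gave nuclear medians of 78.9, 153, 234, 171 and 266 FPKM for complexes I to V. On that assumption complex III no longer stood highest. With each liver left out in turn, the mitochondrial sum was 36743 to 37536 FPKM, the nuclear sum 7826.3 to 7870.6 FPKM, their ratio 4.62 to 4.67, the members at 1 FPKM 100 to 101 and the spread 1.28 to 1.35, lowest without liver 1 (1.28, against 1.32 for all protein-coding genes). Left-out medians were 2932 to 2998 and 50.7 to 52.8 for complex I (mitochondrial, then nuclear), 90.3 to 94.3 for II, 6812 to 7608 and 154 to 155 for III, 150.88 to 150.89 and 63.6 to 64.0 for IV, and 114 to 129 and 81.1 to 84.1 FPKM for V. The left-out sums, ratio and complex medians are medians over livers, so each can only equal a middle value of the livers. Their narrow ranges therefore do not show the spread between livers. For mitochondrial complex IV the livers themselves ran from 108 to 354 FPKM. With shared stretches of 50 in place of 100 bases, 38 nuclear members shared any and 5 shared over 50%. Low fragment counts limit the values of mt-Atp8 and the minor isoforms of complex IV.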
